A study of Ananas comosus with 3 samples.

Results

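Mitochondrial respiration and ATP synthesis genes were followed through pineapple fruit ripening as 38 contigs, groups of cDNA clones that the array annotation assigned to one transcript. They were the contigs whose deposited gene name held a respiratory term (NADH dehydrogenase, cytochrome b or c, ubiquinol, ubiquinone, succinate dehydrogenase, ATP synthase, ADP/ATP, alternative oxidase or mitochondrial), once names of other processes such as ribosomal, chaperone or chloroplast were left out. The whole array held 3276 contigs and 8179 features in all, counting each clone without a contig number as a feature. The rule used names only and no measured value. It also took in 7 contigs named vacuolar ATP synthase and 3 of the cytochrome b5 system, whose proteins work outside the respiratory chain, and 3 contigs whose names carry a nematode tag. Flesh from the middle of mature yellow fruit was compared with flesh from the middle of mature green fruit, both from field-grown commercial plants of one clone of the cultivar Smooth Cayenne, with skin and pith removed. RNA of both stages was hybridized together to each of 3 two-colour slides. Replicates 1 and 3 had the mature yellow sample in Cy3 and the mature green sample in Cy5, and replicate 2 had them the other way round. The sources used here do not say which slides share fruits or RNA extracts, so an SD or p-value covers the spread between these slides, which may be technical. A whole piece of flesh was extracted, so fewer cells of a kind and less RNA per cell cannot be told apart.

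Respiration passes electrons from NADH and succinate through the protein complexes of the inner mitochondrial membrane to oxygen, and the proton gradient that this builds drives ATP synthase. Carrier proteins then exchange the new ATP for ADP and bring in phosphate. Pineapple is classed as non-climacteric: its ripening is not accompanied by a peak of respiration. The vacuolar enzymes named ATP synthase run the other way: they spend ATP to pump protons into the vacuole, where fruit cells keep organic acids and sugars.

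Ratios are given as log2 of mature yellow over mature green, so that a positive value means a stronger signal in yellow fruit. Normalised intensities are scanner units after background correction and loess, and they include an added 50 units, so that the ratios of dim contigs lie closer to 0. Over all features tested (8176, of which 3274 contigs) the median log2 ratio was 0.0080, with an interquartile range of 0.18. Over all 8016 features measured on each slide, the ratios correlated at 0.83 between replicates 1 and 2, 0.91 between replicates 1 and 3 and 0.80 between replicates 2 and 3. Such correlations weigh large ratios heavily, and the log2 ratios over all features tested ran from -5.26 to 3.90. Of the 8016 features, 18.5% were higher and 18.6% lower in yellow on all 3 slides. In 28.9% of them replicate 2 had the opposite sign to both other slides. Between 83.4% and 92.2% of element spots on a slide exceeded the blank spots in at least one channel. Of the fruit flesh markers, both metallothionein features exceeded the blank spots in at least 1 channel on all slides, with log2 ratios of -0.19 and 0.38. Fruit bromelain, the main fruit protease, had 3 features with log2 ratios from -5.09 to -0.063, of which 1 exceeded the blank spots in at least 1 channel on every slide. The feature at -5.09 was measured on 2 slides only. The green tissue list held 1 rubisco feature, at a log2 ratio of 0.31. No feature had a name with bromelain inhibitor or chlorophyll a/b binding.

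None of the 38 contigs was called, which took both 1.5-fold and an adjusted p under 0.05 (limma, Benjamini-Hochberg over all features). That call was met by 2.89% of all features, 0.624% being higher and 2.26% lower in yellow, and by 0.58% of contigs. None reached 1.5-fold in either direction, against 9.11% of all features and 3.24% of contigs. Contigs 15 and 25, the ADP,ATP carrier contig and the cytochrome b5 contig of clone JBW087A02 are among those that the study lists. That list is of elements that passed a fold limit between the stages, so it differs from the result here for these contigs. In the deposited processed values, whose centring is not stated, the log2 ratios of these contigs were 0.99, -0.30, 0.12 and 0.99. Contig 15 and the cytochrome b5 contig thus passed 1.5-fold there, but none of the contigs named was called. Clones that the authors sequenced later were assigned to the ADP,ATP carrier and cytochrome b5 contigs, and they entered no contig mean here. Whether the listing of these contigs rests on such clones was not tested. At an unadjusted limma p under 0.05 stood 4 of the 38, against 11.3% of all features and 6.35% of contigs: 3 lower in yellow (ATP synthase gamma contig 25, carrier contig 821 and MSP1 contig 1449) and 1 higher (vacuolar ATP synthase subunit G contig 15). This count turned on single slides and on the processing, with 1 contig without replicate 1, 1 without replicate 2, 0 without replicate 3, 0 with a normexp offset of 0, 1 with plain background subtraction and 8 with a dye term in the fit. The lowest adjusted p among the 38 was 0.329. The log2 ratios of the 38 contigs ranged from -0.31 to 0.43, with a median of 0.031 and an interquartile range of 0.17. By direction, 21 lay above 0 and 17 below it. On all 3 slides 9 were higher in yellow, where 18.5% of all features and 19.9% of contigs were, and 4 were lower, where 18.6% of all features and 11.9% of contigs were.

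How far these slides bound a change is given by the 95% confidence intervals. They lay within 1.5-fold in both directions for 33 of the 38 contigs, 86.8%, beside 69.1% of all features. The share over contigs alone was not computed, so the gap between these shares is not read as a result about the 38. The median SD between slides was 0.19 in the 38 contigs, 0.14 in all contigs and 0.17 in all features. Both channels exceeded the blank spots on all 3 slides in 27 contigs, and 22 of those 27 had such an interval. The other 11 exceeded the blank spots in some channels or slides only. All 11 had such an interval too, among them contigs 502, 1716 and 2037, where no size of a difference was measurable. The added 50 units draw the ratios of dim contigs toward 0, and the bounds of brighter contigs also depend on this setting: with plain background subtraction 6 contigs reached 1.5-fold, among them contig 25, one of the 22, at a log2 ratio of -0.73. The intervals that reached beyond 1.5-fold belonged to contigs 15, 68, 1180 and 2437 and to the cytochrome b5 contig of clone JBW087A02. On replicate 2, the slide with exchanged dyes, 14 of the contigs had the opposite sign to both other slides, beside 28.9% of all features. Across the 37 contigs measured on all slides the ratios correlated at -0.11 between replicates 1 and 2, 0.44 between replicates 1 and 3 and 0.075 between replicates 2 and 3. The correlations over all features include large ratios, which these contigs lack, so the 2 sets of correlations are not alike. Replicates 1 and 3 share the dye orientation, and a dye effect and the slide cannot be told apart on replicate 2. With a dye term in the fit, which needs all 3 slides and so left 37 contigs, none was called either, and the lowest adjusted p was 0.060 (limma, Benjamini-Hochberg), for the same cytochrome b5 contig at a log2 ratio of 0.57.

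**Figure D1:**
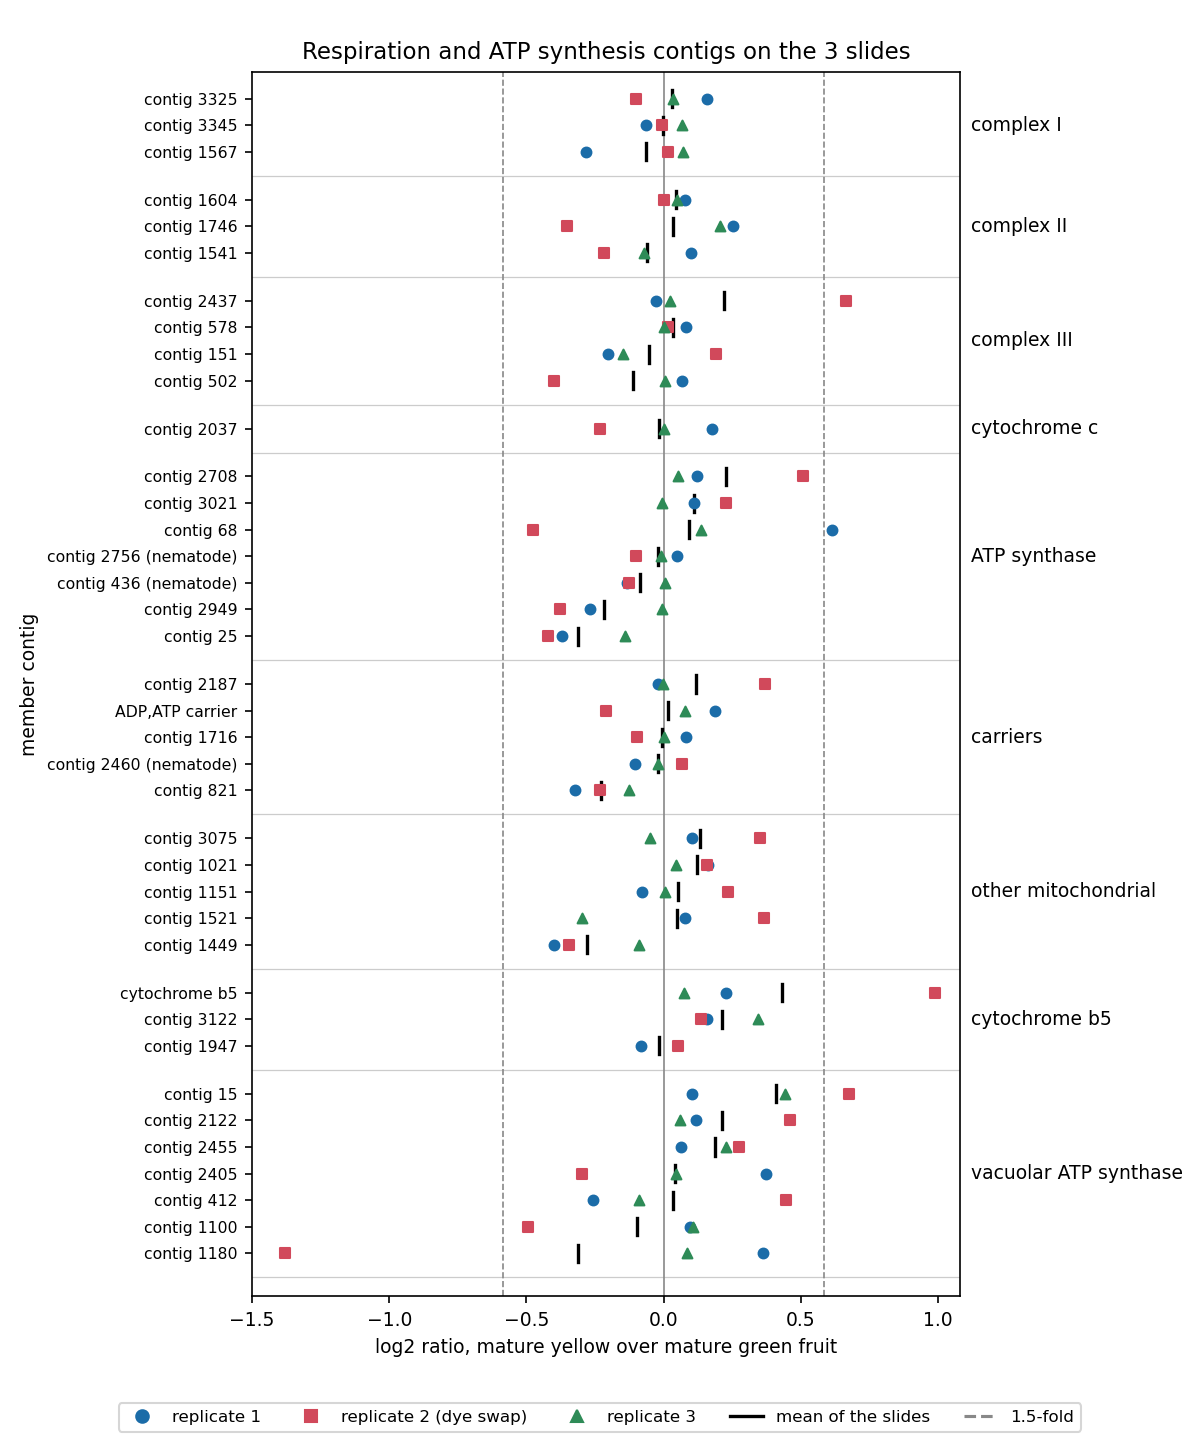
Log2 ratio of mature yellow over mature green fruit (horizontal axis) for each of the 38 contigs (vertical axis), grouped by role, with one point per slide, a bar at the mean of the slides and dashed lines at 1.5-fold. All 38 means lie between the dashed lines, from -0.31 to 0.43, and in 14 contigs the square of replicate 2 lies across 0 from both other points.

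Complex I, the NADH dehydrogenase where electrons from NADH enter the chain, was represented by 3 contigs with a median log2 ratio of -0.00052. Contig 1567, a subunit of NADH-ubiquinone oxidoreductase, had log2 ratios of -0.28, 0.016 and 0.072 on replicates 1, 2 and 3, a mean of -0.065 ± 0.19 (SD, n = 3). Contig 3325, annotated as the same subunit, had 0.16, -0.10 and 0.034, a mean of 0.030 ± 0.13 (SD, n = 3). Neither contig kept one direction, and the slide that stood lowest was replicate 1 in contig 1567 and replicate 2 in contig 3325. Contig 3345, a putative NADH dehydrogenase read from 2 clones, had -0.062, -0.0067 and 0.068, with a mean of -0.00052 and a 95% interval of -0.19 to 0.19. That interval lies within 1.5-fold in both directions. It holds for this processing only, and the spread between slides behind it may be technical, so it cannot exclude such a change. Under the alternatives run, the log2 ratio of contig 3345 ranged from -0.035 to 0.30, with the other sign in 8 of 14.

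Complex II, succinate dehydrogenase, is shared by the chain and the citric acid cycle. Its flavoprotein, which oxidizes succinate, was contig 1541, with log2 ratios of 0.10, -0.22 and -0.070 and a mean of -0.062 ± 0.16 (SD, n = 3). Subunits 3 and 4 anchor the enzyme in the membrane. Contig 1604, subunit 3, had 0.078, 0.0032 and 0.050, a mean of 0.044 ± 0.038 (SD, n = 3), and its SD was the smallest of the complex. Its 2 clones nevertheless stood apart, with mean log2 ratios of 0.30 in JBW058E03 and -0.22 in JBW093E03, so the value near 0 of the contig averages clones of opposite sign. Contig 1746, subunit 4, had 0.25, -0.35 and 0.20, with replicate 2 alone below 0 and a mean of 0.035 ± 0.34 (SD, n = 3).

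Complex III, ubiquinol-cytochrome c reductase, hands electrons to cytochrome c. Contig 2437 had normalised intensities of 113, 301 and 104 in yellow fruit on replicates 1, 2 and 3, against 115, 189.9 and 103 in green fruit. The stages stood clearly apart on replicate 2 alone, and the mean log2 ratio was 0.22 ± 0.39 (SD, n = 3), with a 95% interval of -0.28 to 0.72 and an adjusted p of 0.759 (limma, Benjamini-Hochberg). Contig 151, with 3 clones, had log2 ratios of -0.20, 0.19 and -0.15. Here too replicate 2 had the other sign, and the clones agreed in it: all 3 were above 0 on that slide while their means over the slides ran from -0.085 to -0.026. The cytochrome c1 contigs, the heme subunit that passes electrons on, had means of 0.034 in contig 578 and -0.11 in contig 502. Cytochrome c itself, the small mobile carrier, was contig 2037, with 0.18, -0.23 and 0.0018 and a mean of -0.018 ± 0.21 (SD, n = 3).

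Contigs 502 and 2037, like the putative mitochondrial carrier contig 1716, were dim. In none of the 3 did the yellow channel exceed the blank spots on any slide, and the green channel did so on 1 slide. Neither channel exceeded the blank spots on the other slides, so no size or direction of a difference was measurable in these contigs. No contig met the names of complex IV, the cytochrome c oxidase that reduces oxygen, or of alternative oxidase, which bypasses the later complexes, so these steps were not measured here.

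ATP synthase turns the proton gradient into ATP, its gamma chain being the shaft that rotates within the catalytic head. Contig 25, named ATP synthase gamma chain with no organelle given, had normalised intensities of 152, 263 and 161 in yellow fruit, against 197, 352 and 178 in green fruit. It was lower in yellow on all 3 slides, with log2 ratios of -0.37, -0.42 and -0.14. The mean was -0.31 ± 0.15 (SD, n = 3), with a 95% interval of -0.57 to -0.057. The interval excludes 0, but the unadjusted limma p of 0.0278 became an adjusted p of 0.329 (limma, Benjamini-Hochberg), so the contig was not called. Its 4 clones had means of -0.44, -0.41, -0.30 and -0.091, all below 0. Of the 12 clone values over the slides, JBW099C07 on replicate 2 was the single one above 0, at 0.092.

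A second gamma chain contig, 2949, had log2 ratios of -0.27, -0.38 and -0.0063, likewise below 0 on each slide, with a mean of -0.22 ± 0.19 (SD, n = 3) and an adjusted p of 0.558 (limma, Benjamini-Hochberg). It exceeded the blank spots on 2 slides, and on replicate 3, where it did not, its ratio was closest to 0. Contigs 25 and 2949 carry the same gene name, and whether their clones bind the same transcripts was not tested. The other plant contigs of the enzyme had means above 0. Contig 2708, the delta prime chain of the mitochondrial enzyme, had 0.12, 0.51 and 0.054 and a mean of 0.23 ± 0.24 (SD, n = 3), with a 95% interval of -0.12 to 0.57. Contig 3021, the catalytic beta chain, had 0.11, 0.23 and -0.0047, and it exceeded the blank spots on only 1 slide in yellow fruit and 2 in green fruit. Contig 68, an ATP synthase-related protein, had 0.62, -0.48 and 0.14, with a 95% interval of -0.59 to 0.77. One of its 2 clones set this spread: JBW042F09 had 1.36, -0.98 and 0.35, whereas JBW099G03 had -0.13, 0.023 and -0.077. Over the 16 plant contigs of the chain and of ATP synthase together, 8 lay above 0 and 8 below, with a median log2 ratio of 0.015 beside 0.0080 for all features.

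**Figure D2:**
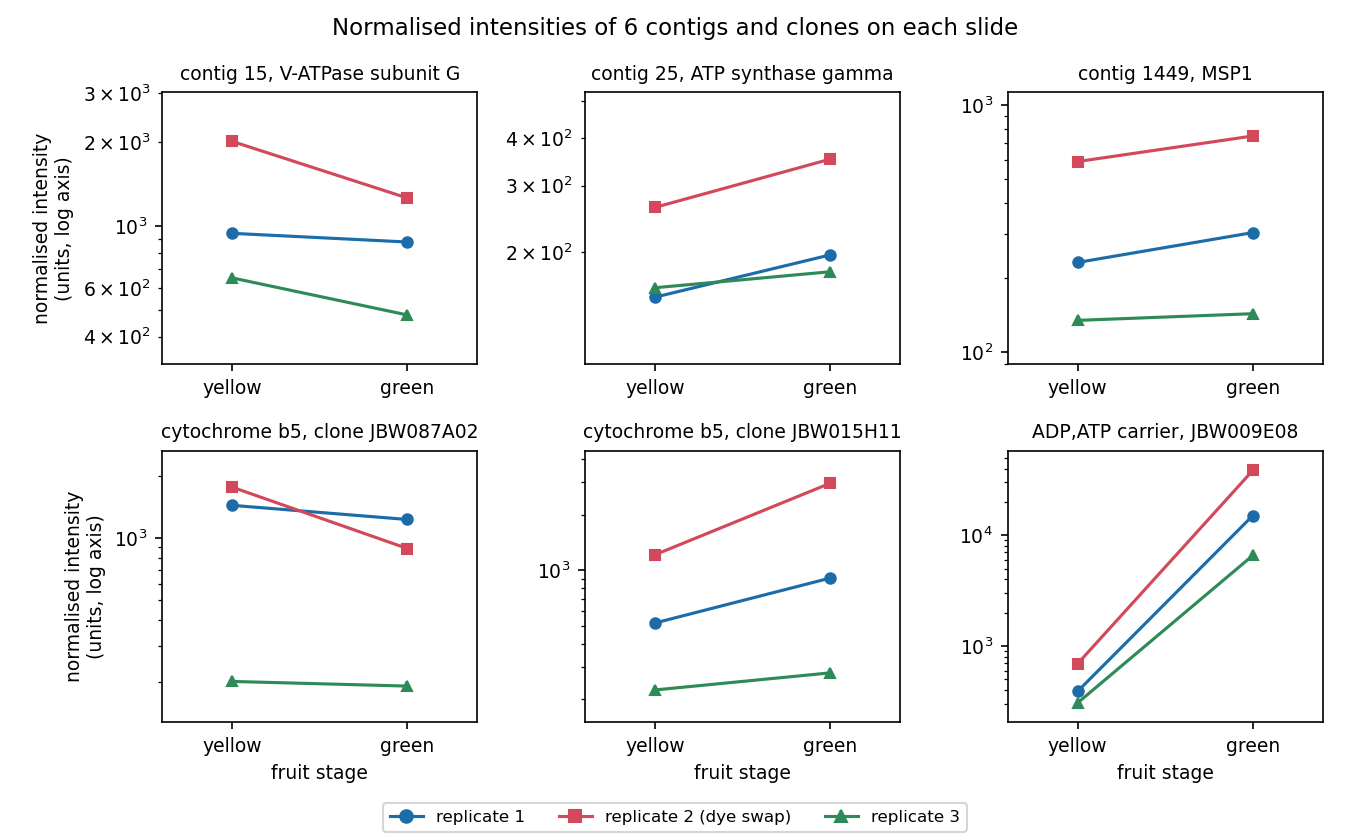
Normalised intensity in scanner units on a log axis (vertical, a separate range in each panel) of 6 contigs or clones in mature yellow and mature green fruit (horizontal), with one line per slide. Contigs 25 and 1449 were lower in yellow and contig 15 higher in yellow on all 3 slides, and the last 2 panels hold newly numbered clones that were sequenced because they had changed on these slides.

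The ADP,ATP carrier, the exchanger that exports ATP from the mitochondrion, was the contig with the most clones. Its 11 earlier clones, those with a contig number in the full deposited files, averaged normalised intensities of 329, 516 and 216 in yellow fruit and 289.6, 598 and 205 in green fruit. The log2 ratios were 0.19, -0.21 and 0.076, with replicate 2 below 0 and the other slides above it. The mean was 0.017 ± 0.21 (SD, n = 3), with a 95% interval of -0.29 to 0.32 and an adjusted p of 0.979 (limma, Benjamini-Hochberg). Mean ratios of the 11 clones ran from -0.18 to 0.19 with a median of 0.0031, 6 above 0 and 5 below. The clones are assigned to one transcript and are not replicates of the comparison. They shared the slide pattern in part: 8 of them were above 0 on replicate 1, 4 on replicate 2 and 7 on replicate 3.

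The authors later sequenced further clones, chosen because they had passed their tests for change on these same slides, and 3 of these were assigned to the ADP,ATP carrier contig. Their values are given as a description with no test. JBW009E08 had normalised intensities of 389, 692 and 306 in yellow fruit, against 15067, 38525 and 6579 in green fruit. Every slide showed the green signal many times the yellow one, with log2 ratios of -5.27, -5.80 and -4.42 and a mean of -5.17 ± 0.69 (SD, n = 3). JBW007C11 had 199.8, 812 and 171 in yellow fruit, against 1105, 3741 and 934 in green fruit. Its log2 ratios of -2.47, -2.20 and -2.45 were close together, with a mean of -2.37 ± 0.15 (SD, n = 3). The third, JBW007C03, had log2 ratios of 0.49, -0.76 and 0.57, a mean of 0.097 ± 0.75 (SD, n = 3), and its sign on replicate 2 was opposite to the other slides, as in the mean of the earlier clones. All 3 exceeded the blank spots in both channels on every slide. JBW009E08 and JBW007C11 thus lay far outside the -0.18 to 0.19 of the 11 earlier clones of the contig they were assigned to. Drops of this size were not particular to them. Of 4902 features without a contig number in the full files, these clones included, 184 were called lower in yellow and 33 higher. The lowest of those log2 ratios was -5.26, and a fruit bromelain contig stood at -5.09. Whether their inserts are ADP,ATP carrier sequence was not tested.

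**Figure D3:**
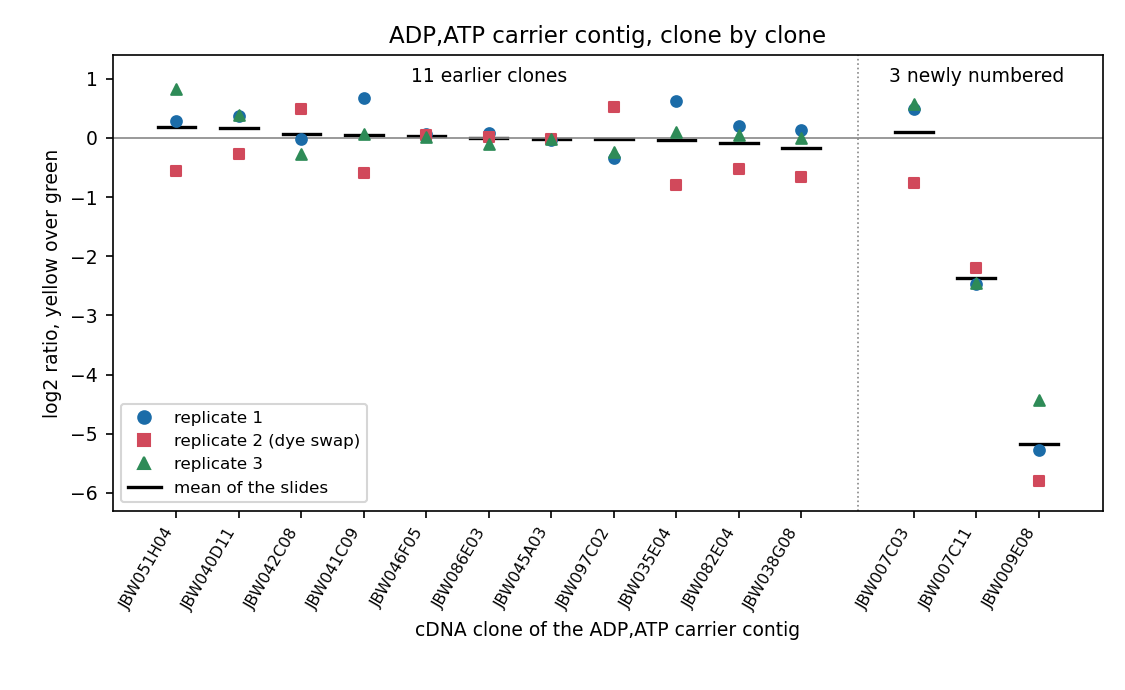
Log2 ratio of mature yellow over mature green fruit (vertical axis) on each slide for the 14 clones of the ADP,ATP carrier contig (horizontal axis), with the 11 earlier clones left and the 3 newly numbered ones right of the dotted line, and a bar at each mean. The means of the earlier clones lie between -0.18 and 0.19, and those of JBW007C11 and JBW009E08 at -2.37 and -5.17.

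Of the other carriers of the inner membrane, contig 821 was lower in yellow on all 3 slides. Its normalised intensities were 103, 162 and 123 in yellow fruit, against 128, 190.2 and 134 in green fruit. The log2 ratios of -0.32, -0.23 and -0.13 gave a mean of -0.23 ± 0.098 (SD, n = 3), with a 95% interval of -0.44 to -0.014, an unadjusted limma p of 0.042 and an adjusted p of 0.404 (limma, Benjamini-Hochberg). Contig 2187, of the mitochondrial carrier family, had -0.019, 0.37 and -0.0027, a mean of 0.12 ± 0.22 (SD, n = 3) that rested on replicate 2. The mitochondrial phosphate transporter, which brings in phosphate for ATP synthesis, was contig 1151, with -0.078, 0.23 and 0.0052. The uncoupling protein-like contig 1521, whose family lets protons return without making ATP, had 0.079, 0.36 and -0.30, so that the 3 slides disagreed in sign.

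Other mitochondrial proteins included contig 1449, named after MSP1, which in yeast is an outer membrane ATPase that removes misplaced proteins. Its normalised intensities were 231, 589.7 and 135 in yellow fruit, against 305, 748 and 143 in green fruit, lower in yellow on each slide. The log2 ratios were -0.40, -0.34 and -0.090, a mean of -0.28 ± 0.17 (SD, n = 3), with a 95% interval of -0.55 to -0.011 and an adjusted p of 0.42 (limma, Benjamini-Hochberg). Its 2 clones agreed in their means, -0.30 for JBW082C10 and -0.25 for JBW055E02, though different slides carried them: JBW082C10 was lowest on replicate 2, at -0.80, and JBW055E02 on replicate 1, at -0.69. Contig 1021, an inner membrane translocating protein of the import machinery, had 0.16, 0.16 and 0.044, above 0 on every slide, with a mean of 0.12 ± 0.067 (SD, n = 3) and an adjusted p of 0.635 (limma, Benjamini-Hochberg). Contig 3075, the mitochondrial elongation factor G that moves the ribosome along its message, had 0.10, 0.35 and -0.050 and a mean of 0.13 ± 0.20 (SD, n = 3).

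The 3 contigs with a nematode tag, ATP synthase-like contigs 2756 and 436 and the import subunit contig 2460, had mean log2 ratios of -0.020, -0.085 and -0.020. The clones printed on the array came from several tissues, roots among them. Contig 2756 exceeded the blank spots on 2 slides in the yellow channel and 3 in the green channel, contig 436 on 1 and 2, and contig 2460 on 1 and 1. The counts over the 16 plant contigs leave them out.

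The cytochrome b5 system carries electrons in the membrane of the endoplasmic reticulum, to fatty acid desaturases among others. The cytochrome b5 contig of clone JBW087A02 had the highest mean of the 38. That clone had normalised intensities of 1438, 1761 and 201 in yellow fruit, against 1227, 887 and 191 in green fruit. It was higher in yellow on all slides, by far the most on replicate 2, with log2 ratios of 0.23, 0.99 and 0.075. The mean was 0.43 ± 0.49 (SD, n = 3), 1.35-fold, with a 95% interval of -0.19 to 1.05 and an adjusted p of 0.586 (limma, Benjamini-Hochberg). A newly numbered clone of the same contig, JBW015H11, had 517, 1214 and 224 in yellow fruit, against 907, 2968 and 277 in green fruit. Its direction was the opposite on every slide, with log2 ratios of -0.81, -1.29 and -0.31 and a mean of -0.80 ± 0.49 (SD, n = 3), again a description only, since the clone was sequenced for its change. Contig 3122, cytochrome b5 reductase, which passes electrons from NADH to cytochrome b5, had 0.16, 0.13 and 0.34, a mean of 0.21 ± 0.11 (SD, n = 3) with a 95% interval of -0.013 to 0.44. The other contig named cytochrome b5, 1947, was measured on replicates 1 and 2 only, at -0.082 and 0.051.

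The vacuolar proton pump gave 7 contigs, 5 above 0 and 2 below, with a median log2 ratio of 0.041. Of the 7, 3 were higher in yellow on all slides, where 18.5% of all features and 19.9% of contigs were. Their median SD between slides was 0.34, beside 0.14 in all contigs. Contig 15, subunit G of the stalk that holds the catalytic head in place, had normalised intensities of 942, 2016 and 651 in yellow fruit, against 876, 1261 and 479 in green fruit. The log2 ratios were 0.10, 0.68 and 0.44, all above 0 with replicate 1 the smallest. The mean was 0.41 ± 0.29 (SD, n = 3), 1.33-fold, with a 95% interval of 0.018 to 0.80 and an adjusted p of 0.419 (limma, Benjamini-Hochberg). JBW053D12 was higher in yellow on all 3 slides, at 0.25, 0.62 and 0.96. JBW035G01 was so on replicate 2 alone, at -0.043, 0.73 and -0.079. Of the 65 earlier clones of the 38 contigs, JBW053D12 was the single one whose mean passed 1.5-fold, at 1.53-fold. The other subunit G contig, 2122, had 0.12, 0.46 and 0.059, a mean of 0.21 ± 0.22 (SD, n = 3) with a 95% interval of -0.10 to 0.53.

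The catalytic subunit A, where ATP is split, was read by contigs 2455 and 412. Contig 2455 had log2 ratios of 0.064, 0.27 and 0.23, a mean of 0.19 ± 0.11 (SD, n = 3) with a 95% interval of -0.034 to 0.41, and both its clones had means above 0. Contig 412 had -0.26, 0.45 and -0.091, with replicate 2 opposite to the others, and 2 of its 3 clones followed that pattern. The pair therefore gave one steady and one unsteady reading of the same named subunit. Subunit C, contig 2405, had 0.37, -0.30 and 0.044. Subunit d of the membrane sector, contig 1100, had 0.096, -0.50 and 0.11, of which the replicate 2 value came from 1 of its 2 clones. Subunit H, contig 1180, had 182, 171 and 117 in yellow fruit, against 142, 446 and 111 in green fruit. Replicate 2 stood far below the others, and the mean of -0.31 ± 0.94 (SD, n = 3) had the widest interval of the 38, -1.45 to 0.83.

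**Figure D4:**
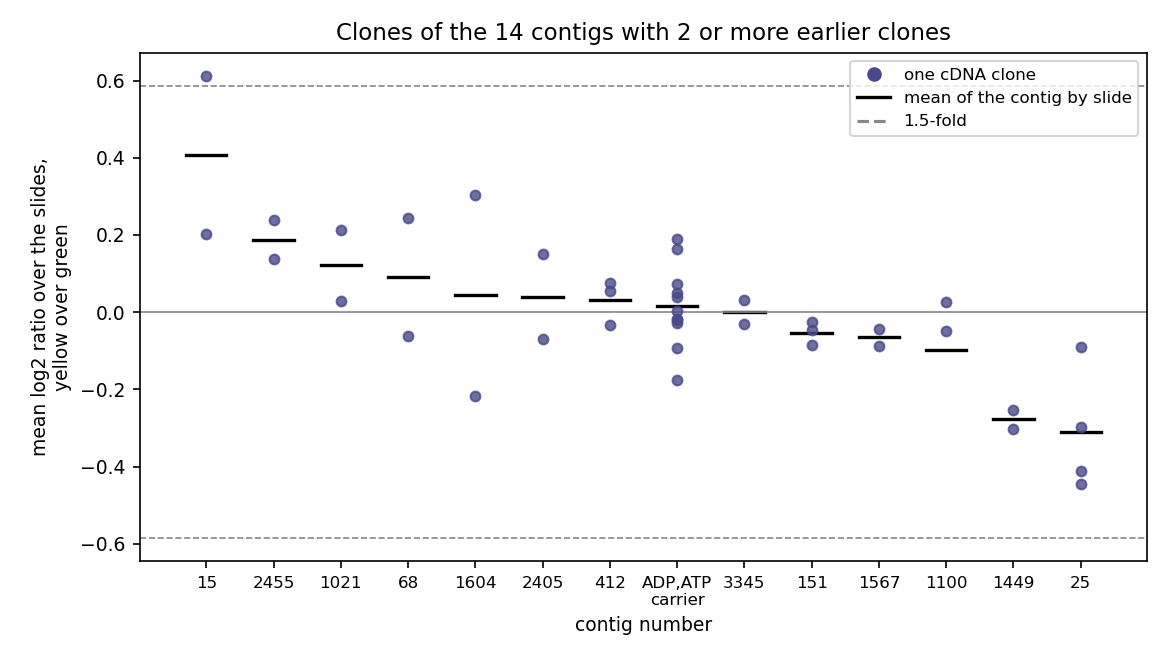
Mean log2 ratio of mature yellow over mature green fruit (vertical axis) of each earlier clone in the 14 contigs with 2 or more such clones (horizontal axis, contig number), with a bar at the contig value averaged by slide and dashed lines at 1.5-fold. The 4 clones of contig 25 and both clones of contig 1449 lie below 0, both of contig 15 above it, and the bar of contig 1100 lies outside its clones because 1 clone was not measured on replicate 2.

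Beside the 38 contigs stood one that the rule did not take, named ATPase alpha subunit, a name that does not say which ATPase. Its log2 ratios were 1.58, -0.11 and 1.04 on replicates 1, 2 and 3, a mean of 0.84 ± 0.86 (SD, n = 3), or 1.79-fold. The interval of -0.22 to 1.90 includes 0, and the adjusted p was 0.533 (limma, Benjamini-Hochberg). A list of citric acid cycle enzymes, related dehydrogenases inside and outside the mitochondrion, and prohibitin, an inner membrane scaffold protein, gave 19 features. None was called, none reached 1.5-fold and 1 stood at an unadjusted limma p under 0.05, beside 0.58%, 3.24% and 6.35% of all contigs. With so few features these counts are not read as a result about the list. Of the 19, 13 lay above 0 and 6 below, with a median log2 ratio of 0.049 beside 0.031 for the 38 contigs. On all slides 6 were higher in yellow, where 19.9% of contigs were, and 3 were lower, where 11.9% of contigs were. The highest was an aconitase, contig 2539, whose name does not say whether it works inside the mitochondrion. Its log2 ratios were 0.24, 0.52 and 0.26, a mean of 0.34 ± 0.16 (SD, n = 3) with an adjusted p of 0.292 (limma, Benjamini-Hochberg). The lowest was formate dehydrogenase, contig 3430, with -0.25, -1.08 and 0.0015, a mean of -0.44 ± 0.57 (SD, n = 3), where replicate 2 set the value.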

How the data were processed

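Labelled cDNA of mature yellow and mature green fruit was measured on 3 slides of 9278 cDNA elements printed in duplicate. For each spot the authors deposited its intensity and that of the surrounding background in either channel, as the scanner gave them once spots had been edited. These are medians over pixels in the full files of replicates 1 and 2 and means in that of replicate 3. Further files list only spots past a 2xSD test, as means, and add contig numbers of clones sequenced later. A table of processed values per contig was also deposited by the authors, a score that gives the ratio, or minus its reciprocal where the ratio is below 1. Its scale and centring are not stated, and its columns held values for 2211, 2224 and 687 contigs on replicates 1, 2 and 3. Against the scanner values its columns for replicates 1, 2 and 3 correlated at 0.862, -0.888 and 0.549 with yellow over green, so the column of replicate 2 was read as green over yellow and turned, and the column medians were 0.14, -0.059 and 1.03 on the log2 scale.

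The software was R 4.3.3, limma 3.58.1, Python 3.11.15 and matplotlib 3.10.9. Spots marked abnormal (318, 308 and 547) and spots listed at 0 in a channel (0, 75 and 1) were left out. Background correction of the remainder used normexp (offset 50), followed by a loess fit per slide in which blank and control spots had weight 0. Duplicate spots were averaged, then the clones of a contig. Only clones numbered in the full files entered a contig, because those numbered later had been sequenced for their change on these slides. A feature needed values on 2 slides. Each was fitted with an intercept in limma, with a prior of 1.74 degrees of freedom, and p-values were adjusted by Benjamini-Hochberg over all 8176 features. A blank limit was the blank spots plus 2 robust SD in each channel. The number of arrays limits the precision. The procedure was tested on simulated data with large changes planted in brighter features. That test does not cover changes near 1.5-fold or dim contigs.

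Members, role groups and the lists of other pathway genes and marker genes were chosen with earlier results of these data known. A keyword match that fell under the names left out was dropped for 2 contigs. The members named by rule were those at 1.5-fold or called, those with several clones, the highest and lowest of each role group, those listed by the study and those with newly numbered clones, 26 in all. Other members and contigs named were chosen after their values were seen. Alternatives covered background correction, normalization, dim spots, the clones of a contig, the unit of a feature, a dye term, another test, the deposited table and leaving out each slide. Sequences of the clones were not used here. Unused sample columns numbered 0.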

Additional observations from a re-analysis of the deposited data

Results flagged for a closer look

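The 3 clones below drew attention because they carried a signal outside the values of the comparison: they were numbered later, from sequencing of clones that had changed, and so entered no contig mean. JBW009E08, assigned to the ADP,ATP carrier contig, had a mean log2 ratio of -5.17, with intensities above background, before normalization, of 311, 498 and 235 in yellow fruit and 15448, 50372 and 6299.9 in green fruit on replicates 1, 2 and 3. JBW007C11, of the same contig, had a mean of -2.37, with 168, 599 and 112 in yellow fruit and 883, 4628 and 741 in green fruit. JBW015H11, assigned to the cytochrome b5 contig, had a mean of -0.80, with 522, 918 and 179 in yellow fruit and 734, 3618 and 157 in green fruit. All exceeded the blank spots in both channels on every slide. The earlier clones of these contigs had means of 0.017 for the ADP,ATP carrier and 0.43 for cytochrome b5. Among all 4902 features without a contig number in the full files, 184 were called lower in yellow and 33 higher, with the lowest log2 ratio at -5.26. No explanation of the gap was tested.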

How the results depend on the processing

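No member was called under any alternative run. Of 334 values of the 26 named members under alternatives, 60 had the other direction, and contigs 15, 25, 821, 1021, 1449, 1604, 2455 and 2708 kept one direction throughout. Members at 1.5-fold or more, 0 here, numbered 6 with plain background subtraction (contigs 25, 2037, 2437, 2949, 3021 and 3325), 1 with each clone as a feature (JBW053D12), 5 in the deposited processed values (contigs 15, 1021, 2949, 3122 and cytochrome b5) and 0 to 1 with a slide left out (contig 1180 without replicate 1, cytochrome b5 without replicate 3). Their median log2 ratio was 0.28 in the deposited values, where that of all features was 0.17. Cytochrome b5 stands for the contig of clone JBW087A02. Over all features 236 were called, 21.6% of them higher in yellow. The count was 402 with plain subtraction, 0 with scale normalization, 378 of 2476 with spots of the 2xSD files (23.0% higher), 9 with newly numbered clones included (33.3% higher), 408 with a dye term (32.4% higher), 479 by the ordinary one-sample test unadjusted (39.7% higher) and 0 after Benjamini-Hochberg, 138 of 2221 in the deposited values (76.8% higher), and between 0 (without replicate 1) and 311 (without replicate 3) with a slide left out. 

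Log2 ratios with the other sign were, by contig, with a normexp offset of 0, ADP,ATP carrier (-0.031) and 412 (-0.011). With no background correction, 151 (0.0015), 2037 (0.021) and 3345 (0.023). With plain background subtraction, 1100 (0.027), ADP,ATP carrier (-0.19), 3075 (-0.29) and 412 (-0.091). With median centring, 151 (0.061), 1541 (0.021), 1567 (0.043), 3325 (-0.0045) and 3345 (0.064). With scale normalization, ADP,ATP carrier (-0.017), 1947 (0.0099), 2405 (-0.036), 3345 (0.020) and 68 (-0.022). With spots above the blank spots by 2 SD, 1100 (0.017), 151 (0.054), ADP,ATP carrier (-0.075), 2405 (-0.095), 3345 (0.11) and 412 (-0.021). With spots of the 2xSD files, ADP,ATP carrier (-0.10), 2405 (-0.0049), 3345 (0.014) and 412 (-0.025). With newly numbered clones included, cytochrome b5 (-0.19) and ADP,ATP carrier (-0.52). With a dye term, 151 (0.0085), ADP,ATP carrier (-0.040), 2405 (-0.044), 3325 (-0.0025) and 68 (-0.050). With the limit at 2 robust SD, chosen after seeing the data, ADP,ATP carrier (-0.0056) and 2037 (0.013). In the deposited processed values, 1100 (0.26), 151 (0.099), 1541 (0.21), 1567 (0.17) and 3345 (0.30). With a slide left out, the range crossed 0 in contigs 1100 (-0.20 to 0.10), 1180 (-0.65 to 0.22), 151 (-0.17 to 0.022), 1541 (-0.14 to 0.015), 1567 (-0.13 to 0.044), ADP,ATP carrier (-0.068 to 0.13), 2037 (-0.12 to 0.089), 2187 (-0.011 to 0.18), 2405 (-0.13 to 0.21), 2437 (-0.0030 to 0.34), 3325 (-0.033 to 0.095), 3345 (-0.035 to 0.030), 412 (-0.17 to 0.18), 502 (-0.20 to 0.035) and 68 (-0.17 to 0.38). The newly numbered clones ranged from -6.02 to -4.12 in JBW009E08, -3.03 to -1.60 in JBW007C11 and -1.09 to -0.49 in JBW015H11, while JBW007C03 changed sign, from -0.50 to 0.53. Causes were not tested. Each slide is itself a direct comparison of the stages, so the fitted ratios were already paired by slide. Signal limits 11 members, which exceeded the blank spots in only some channels or slides.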
